A study of Mus musculus with 23 samples.

Results

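The Zfp genes are the mouse genes named for a zinc finger, a small protein fold held by a zinc ion. Their sites were examined in lists of RNA positions crosslinked to the chromatin protein CTCF. The members are protein-coding genes whose symbol is Zfp followed by digits only, without Zfp42 and Zfp143. They were chosen by a measured value: at least 20 CTCF crosslink sites on the gene's strand, within the gene body, in the WT lists of embryonic stem cells (ESC) and neural progenitor cells (NPC) together. Of 363 genes with such a name, among 21938 protein-coding genes, 105 met this rule. The members are listed with a median of 49 WT sites, against 61 for the other protein-coding genes under the same rule, and the highest number was 686 in Zfp638. The number of WT sites is what the rule used and is given as a description only.

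CTCF was profiled with iCLIP2, a method that fixes bound RNA to protein by UV, after which reverse transcription stops beside the linked nucleotide. All cells were mouse E14 ESCs, or NPCs after 2 days of differentiation of these lines, in which both Ctcf alleles carry an AID2 degron and an OsTIR1 gene at Rosa26 allows degradation. An mCherry reporter at the Hb9 gene was also present, and a doxycycline-inducible Flag-Halo rescue CTCF sat at the Tigre locus. The rescue protein was wild type (WT) or lacked zinc finger 1 (ΔZF1), and each rescue line was 1 clone, so clone and mutation cannot be told apart. Every group received 1 µM 5-Ph-IAA, which degrades the endogenous protein, and 1 µg/mL doxycycline for 24 h before Flag immunoprecipitation from nuclei. UV was given at 400 mJ/cm2, except in the non-crosslinked controls (noXL), which were made from the WT rescue line alone.

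The 23 libraries gave 6 groups, each with 4 libraries except NPC WT with 3. Each group was deposited as 1 list of single-nucleotide sites called on its merged libraries. The authors describe a filter on replicates for wider peaks built from such sites, and none for the single sites. Whether the deposited sites had passed one is not stated, and the counts and their intervals hold for the sites as listed. The differences therefore carry no replicate error and no test. Ranges in parentheses are 95% Wilson binomial intervals, or intervals of ratios derived from them, and cover counting error only. A list grows with sequencing depth, with the amount of a transcript and with contact. RNA levels were not analysed here, so fewer transcripts and less contact per transcript cannot be told apart.

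C2H2 zinc finger proteins read DNA through a row of fingers, each built from a pair of cysteines and a pair of histidines around a zinc ion, with a short linker to the next finger. Many also carry a KRAB box, which recruits the corepressor Trim28 and, through it, the histone methyltransferase Setdb1, and is best known for silencing transposable elements in stem cells. KRAB zinc finger genes arose by tandem duplication, so neighbours on a chromosome can be nearly identical. Other Zfp genes have no KRAB box and act in RNA processing, in the cell cycle or at ribosomes. CTCF is itself a C2H2 zinc finger protein.

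Sequences around called sites show what the lists hold at base resolution. Each is the RNA strand, 21 nt long, read from mm10 (GRCm38), with the called nucleotide in capitals. The first set gives 6 uridine sites of UV lists, chosen by their unscaled scores over all UV lists at once, that fell in codons 8, 14 or 27 of a finger, whose numbering is explained with the finger results. Those of Zfp990 and Zfp985 lie at different loci of chromosome 4 and have the same letters, so reads could not be assigned to 1 of the genes from this stretch alone.
Zfp990, chr4:145537897-145537917 (+), ESC WT: agagaaaccuUacaaaugcag
Zfp985, chr4:147583798-147583818 (+), ESC WT: agagaaaccuUacaaaugcag
Zfp260, chr7:30105254-30105274 (+), NPC WT: guaaggcuuuUagccagaaag
Zfp958, chr8:4628301-4628321 (+), ESC WT: gguaaagccuUugcauaucac
Zfp62, chr11:49217001-49217021 (+), ESC WT: aacucaagccUuaaagugcau
Zfp26, chr9:20437695-20437715 (-), NPC ΔZF1: gagaaagccuUcaccagcuuc

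The second set shows uridine sites of 4 named members, each the highest-scoring site of its gene in the list given. Those of Zfp207, Zfp148 and Zfp106 lay inside runs of uridine, in a coding exon of Zfp207 and in 3′ UTRs of the other genes. In their other WT list Zfp207 and Zfp106 had their highest score at a C and a G of the 5′ UTR. The Zfp57 site lay in the 5′ UTR and was called in ESC noXL as well.
Zfp207, chr11:80391965-80391985 (+), NPC WT: uaagccucuuUuccccagugc
Zfp148, chr16:33497958-33497978 (+), ESC WT: cuaauuacuuUuuaaguaugc
Zfp106, chr2:120508680-120508700 (-), NPC WT: ugggaaaaauUuugaugacca
Zfp57, chr17:37002542-37002562 (+), ESC WT: agacagccacUugagaugugu

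The third set shows 4 of the 7 member positions that were called in all 4 UV lists. None of the 7 was a uridine, and each was also called in at least 1 noXL list.
Zfp292, chr4:34882927-34882947 (-), 5′ UTR: ugcguacgcgAcggagcgggc
Zfp330, chr8:82774137-82774157 (-), 5′ UTR: acauagcaggAuauccggucu
Zfp414, chr17:33629080-33629100 (+), 5′ UTR: cccaugucucGcgagaucuga
Zfp654, chr16:64851532-64851552 (-), coding exon: gcgacggcagAgggggggccg

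The cell labels were checked against marker genes, by sites in ESC WT and then NPC WT. The pluripotency genes went from 85 to 14 sites (Nanog), 66 to 0 (Klf4), 343 to 5 (Tfcp2l1), 460 to 0 (Esrrb), 37 to 14 (Pou5f1) and 35 to 9 (Sox2). The neural progenitor gene Nes went from 2 to 28 sites, while Sox1, Pax6 and Hes5 had 0 in both WT lists. All 5 endoderm and mesoderm markers (Gata6, Sox17, Gata4, T, Mixl1) had 0 sites in every list. Ctcf itself held 109, 68 and 40 sites in the WT, ΔZF1 and noXL lists of ESCs, then 28, 23 and 17 in the NPC lists, which are contacts on its RNA and do not measure the protein.

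In ESCs the members held 5562 sites with WT, 3279 with ΔZF1 and 1905 without UV. In NPCs they held 2590 sites with WT, 1968 with ΔZF1 and 1313 without UV. As a share of all genic sites this was 1.30%, 1.51% and 1.26% for the ESC lists in that order and 1.13%, 1.28% and 1.29% for the NPC lists. The UV lists therefore lay on both sides of the noXL lists. Of the 258 Zfp genes below the rule, 141 had 0 sites in both WT lists, 85 had 1 to 9 and 32 had 10 to 19.

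Members just inside the rule were Zfp68, Zfp513 and Zfp870 with 20 WT sites and Zfp935, Zfp617, Zfp296, Zfp992, Zfp944, Zfp414, Zfp960, Zfp760 and Zfp81 with 21, and 14 members in all had 20 to 22. Just outside it, with 17 to 19, were Zfp593, Zfp981, Zfp212, Zfp777, Zfp788, Zfp827, Zfp35 and Zfp275. Zfp36, an RNA-binding decay factor, and Zfp809, a KRAB protein that silences murine leukaemia virus, were not members.

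The genes with most sites were mainly not KRAB genes. Zfp638, a nuclear RNA- and DNA-binding protein that silences unintegrated retroviral DNA, held 477 sites with WT, 243 with ΔZF1 and 115 without UV in ESCs, and 209, 148 and 76 in NPCs. Zfp292 held 275, 156 and 103 sites in the ESC lists in that order, and 98, 55 and 42 in the NPC lists. Zfp207, a spindle assembly factor that binds Bub3, held 220, 119 and 72 in ESCs and 122, 99 and 50 in NPCs. In these 3 genes the order was WT, ΔZF1, noXL in both cell types, which is also the order of the list totals.

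Zfp148, a transcription factor that binds GC-rich DNA, had 286, 91 and 83 sites in ESC WT, ESC ΔZF1 and ESC noXL, but 30, 37 and 38 in the matching NPC lists. Zfp106, an RNA-binding protein needed in motor neurons, had 199, 74 and 73 sites in ESCs and 99, 65 and 30 in NPCs. Zfp148 thus had its fewest NPC sites in the WT list, and Zfp106 had nearly equal numbers in ESC ΔZF1 and ESC noXL. Zfp871, a KRAB gene of a chromosome 17 cluster, had 190, 88 and 78 sites in ESCs and 62, 70 and 43 in NPCs. Zfp568, a KRAB gene known for repressing an Igf2 transcript, had 129, 101 and 59 in ESCs and 73, 66 and 43 in NPCs. Zfp644, a partner of the G9a methyltransferase complex, had 129, 72 and 49 in ESCs and 164, 121 and 73 in NPCs, but 97.2% of its sites also lay in another annotated gene on the strand.

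**Figure D1:**
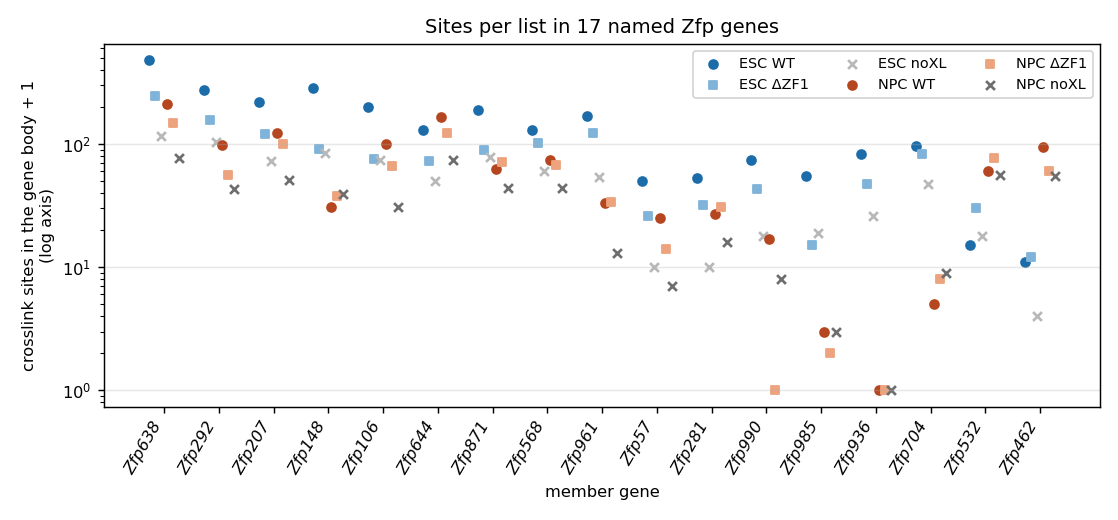
Crosslink sites in the gene body plus 1, on a log axis, for 17 named Zfp genes, with 1 point for each of the 6 lists. Most genes have their highest point in ESC WT, while Zfp936 has 0 sites in all NPC lists and Zfp462 and Zfp532 have their highest points in NPC lists.

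Members with a known part in stem cells or imprinting differed in level. Zfp57, which protects imprinted methylation, held 49, 25 and 9 sites in the ESC lists and 24, 13 and 6 in the NPC lists. Its WT sites were 93.2% exonic, and 36 of 73 lay in the 5′ UTR. Zfp445, which acts beside it at imprints, held 98, 56 and 39 sites in ESCs and 45, 45 and 21 in NPCs. Zfp281, a repressor in the exit from naive pluripotency, held 52, 31 and 9 in ESCs and 26, 30 and 15 in NPCs, and all its WT sites were exonic.

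Zfp296, a stem cell heterochromatin factor, held 21, 15 and 2 sites in the ESC lists and 0 in all NPC lists. Zfp326, which links transcript elongation to splicing, held 41, 33 and 8 sites in ESCs and 27, 24 and 15 in NPCs. Zfp91, a ubiquitin ligase, held 68, 62 and 39 in ESCs and 28, 32 and 22 in NPCs. Zfp217, a corepressor subunit, held 59, 53 and 29 in ESCs and 26, 32 and 26 in NPCs. Zfp318 held 25, 19 and 20 in ESCs and 15, 8 and 15 in NPCs, so its WT and noXL numbers lay close together.

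Gene clusters were defined as runs of at least 3 protein-coding Zfp genes with gaps of at most 250 kb. The 31 clusters hold 197 of the 363 genes but only 44 of the 105 members. The KRAB pattern searched in the translated proteins was found in 33 members, of which 26 were clustered. It misses known KRAB genes such as Zfp57, Zfp568 and Zfp445, and a looser pattern found 43. Members had a median of 9 fingers by spacing, and the highest number was 37, in Zfp142.

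The ratio between lists was taken as log2((a + 1)/(b + 1)) after scaling both lists by their genic totals, wherever a gene had 20 or more sites in the pair. Pooled values below are sums over members, scaled in the same way but without the added 1. Intervals of single genes also leave out the added 1, so at low counts a value lies closer to 0 than the estimate its interval surrounds. Limits of 1 and -1 mark a 2-fold difference. Ratios with a WT list on 1 side lean towards WT, because WT sites chose the members, and the WT list enters several ratios.

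Between cell types, the pooled scaled log2 ratio of NPC WT over ESC WT was -0.20 (-0.27 to -0.14), against -0.02 for the other protein-coding genes under the same rule. The median over members was only -0.08, and 0.02 with a pseudocount of 5. The rule did not use the ΔZF1 and noXL pairs, but these come from the same cell types. Members that passed mainly through ESC WT can be low there too, so these pairs are not a check free of the rule. Their pooled ratio was -0.23 (-0.31 to -0.15) for ΔZF1 and 0.03 (-0.07 to 0.13) for noXL. In noXL 10 of 51 members (19.6%) were above 1 and 9 (17.6%) below -1, against 10.4% and 11.9% of 3542 other genes. In the WT pair, 26 of 105 members (24.8%) were lower and 12 (11.4%) higher. Over all 6730 genes compared, 10.4% were lower and 11.5% higher. The rule used these same lists, so the counts are a description. The number below -1 changed with the sites counted: it was 5, with 6 above 1, for sites scoring at least 3.02, 14 in exons, 15 on uridine and 10 among genes with at least 50 sites. Such filters leave fewer members to compare. The numbers compared and the shares over all genes are not given for them, so these counts cannot be read as shares. Before scaling, 91 members had more sites in ESC WT than in NPC WT, from lists that differ in length by -0.90 on the log2 scale.

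Of the 26 members below -1, 17 were clustered and 15 carried the KRAB pattern. The 44 clustered members had a pooled ratio of -0.65 (-0.77 to -0.52) with 17 below -1, while the 61 outside clusters had -0.02 (-0.10 to 0.06) with 9 below -1. Without Zfp644, whose sites mostly lie in another gene too, the latter was -0.09 (-0.17 to -0.01). The 33 members with the KRAB pattern had -0.82 (-0.97 to -0.68) with 15 below -1, and the 72 without it had -0.02 (-0.10 to 0.06) with 11 below -1. With the looser pattern the values were -0.76 for 43 members and 0.04 for 62.

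The NPC and ESC lists of ΔZF1 and of noXL come from other libraries, which the rule did not use, but from the same cell types. Several clustered members, such as Zfp936 and Zfp229, passed the rule through ESC WT alone. Low values in these pairs are therefore not free of the rule and are a description. Clustered members on chromosomes other than 4 had -0.44 (-0.57 to -0.31) in WT, -0.68 (-0.83 to -0.52) in ΔZF1 and -0.25 (-0.45 to -0.05) in noXL. Members outside clusters had 0.02 (-0.08 to 0.12) in ΔZF1 and 0.20 (0.08 to 0.33) in noXL, with medians of -0.14 (44 genes) and -0.02 (34 genes). The pooled values of the clustered members rest on few genes. Their medians over the members compared were -0.01 in WT (37 genes), -0.36 in ΔZF1 (22 genes) and 0.02 in noXL (14 genes). Clustered members of any chromosome with at most 10% of their exonic 40-nt words found in other genes had a pooled -0.47 (-0.64 to -0.30) in ΔZF1 and -0.04 (-0.25 to 0.17) in noXL.

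Low ratios were shared by all members of 3 neighbouring clusters on distal chromosome 4 (chr4:145510759-147848366, mm10), whose 7 members all carry the KRAB pattern. Together they had 326, 143 and 84 sites in the WT, ΔZF1 and noXL lists of ESCs, and 28, 11 and 12 in those of NPCs. The pooled NPC over ESC ratio was -2.64 (-3.20 to -2.09) in WT, -3.19 (-4.06 to -2.32) in ΔZF1 and -2.24 (-3.10 to -1.38) in noXL, and all 7 were below -1 in WT. Zfp990 held 73, 42 and 17 sites in ESC WT, ESC ΔZF1 and ESC noXL and 16, 0 and 7 in the NPC lists. Zfp984 held 51, 35 and 22 in ESCs and 8, 7 and 2 in NPCs, but 64% of its sites also lay in another gene.

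Zfp985 held 54, 14 and 18 sites in the ESC lists and 2, 1 and 2 in the NPC lists. Zfp979 held 50, 17 and 11 in ESCs, Zfp982 held 41, 14 and 3, and Zfp980 held 38, 21 and 11, all with 0 in the 3 NPC lists. Zfp992 held 19, 0 and 2 in ESCs and 2, 3 and 1 in NPCs. The ESC and NPC lists of Zfp992 overlapped. The ESC lists are longer than the matching NPC lists, and these genes passed the rule mainly through ESC WT, so their lower NPC numbers are a description only.

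These chromosome 4 genes share sequence. Between 22.1% and 76.9% of their exonic 40-nt words also occur in transcripts of other genes, so their single counts are uncertain. Over all clustered members, the 15 with more than 10% of such words shared had a pooled NPC over ESC ratio of -2.29 (-2.65 to -1.93), with 13 below -1. The other 29 had -0.24 (-0.38 to -0.10), with 4 below -1, where 10.4% of all 6730 genes lay below -1. The medians were -1.84 and 0.02. In ΔZF1 the pooled values were -2.65 (-3.14 to -2.17) and -0.47 (-0.64 to -0.30). The ratio was thus lower in the members with more shared sequence, whose part in it was not tested. The exon share of the chromosome 4 members was 35.6% in ESC WT, against 61.7% for all members.

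**Figure D2:**
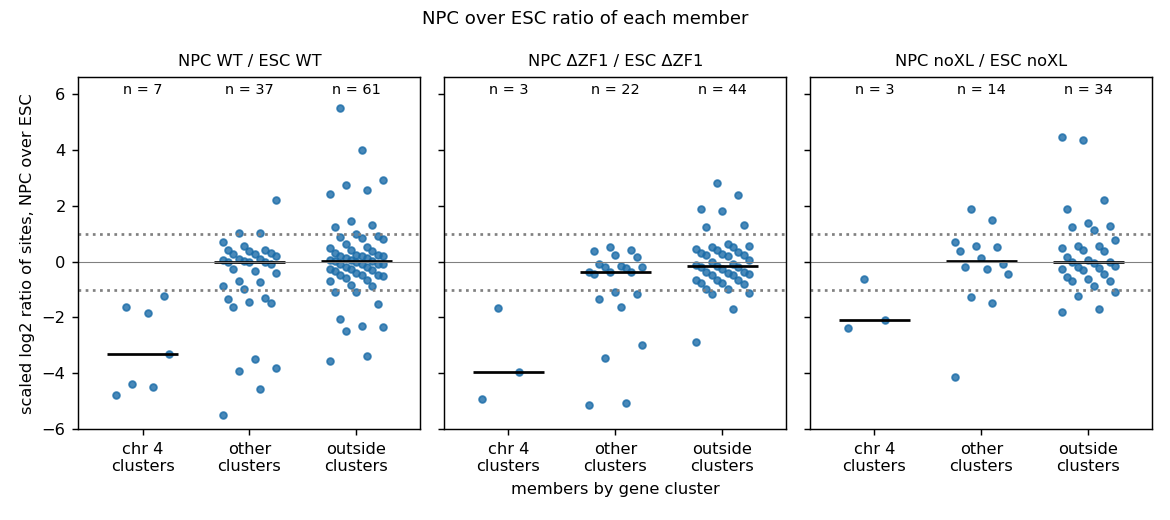
Scaled log2 ratio of sites, NPC over ESC, for each member with at least 20 sites in the pair, by gene cluster, in the WT, ΔZF1 and noXL pairs. Points are genes, black lines are medians, dotted lines mark 1 and -1, and n is the number of genes. All 7 chromosome 4 cluster members lie below -1 in WT, while members outside clusters centre near 0.

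Other members also lay far from 0 between cell types. Zfp936, a KRAB gene in a chromosome 7 cluster with 21.5% of its words shared, held 82, 46 and 25 sites in the ESC lists and 0 in all NPC lists. Its NPC WT number was at least 27.3-fold lower than its ESC WT number before scaling, taking 3 sites as the floor. For Zfp979 this bound was 16.7-fold. Both genes had 0 NPC WT sites and passed the rule through ESC WT alone, which is also the longer list. These bounds come from the counts that chose the genes and are a description only. Zfp704 outside clusters held 95, 82 and 46 in ESCs and 4, 7 and 8 in NPCs, a ratio of -3.36 (-5.06 to -2.28).

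In the other direction, Zfp462, which restrains lineage genes in stem cells, held 10, 11 and 3 sites in ESCs and 94, 59 and 54 in NPCs, a ratio of 4.01 (3.21 to 5.06). Zfp532, on chromosome 18, held 14, 29 and 17 in ESCs and 60, 76 and 55 in NPCs, a ratio of 2.92 (2.17 to 3.83). Zfp608, on the same chromosome, held 0, 0 and 1 in ESCs and 23, 16 and 29 in NPCs. Every NPC list lay above every ESC list in these genes, noXL included. They passed the rule mainly through NPC WT, Zfp608 through it alone, so their WT numbers are a description only. Zfp644 had a ratio of 1.24 (0.91 to 1.58).

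In the pairs without WT lists, among members with at least 50 sites in the pair, Zfp462 was highest, at 2.83 (2.02 to 3.84) in ΔZF1 and 4.35 (3.14 to 6.33) in noXL. Zfp609 followed in ΔZF1 at 2.39, with 58 sites against 15, and Zfp532 had 1.87 in ΔZF1 and 2.20 in noXL. Under the same limit the lowest in ΔZF1 were Zfp808, of a chromosome 13 cluster, with 5 sites against 67, Zfp704 at -2.87 and Zfp961, of a chromosome 8 cluster, at -1.34. In noXL they were Zfp704 at -1.82, Zfp961 at -1.49 and Zfp292 at -0.71. Members with fewer sites went further, such as Zfp229 with 0 against 49 sites in ΔZF1, Zfp936 with 0 against 25 in noXL and Zfp608 with 29 against 1 in noXL. Zfp850, which leads a chromosome 7 cluster with Zfp59, held 30, 11 and 11 sites in ESCs and 13, 5 and 2 in NPCs.

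Families with related names gave other values. The 11 Zbtb genes under the same rule, which pair zinc fingers with a BTB domain, had a pooled NPC over ESC ratio of -1.17 (-1.49 to -0.85). The 6 Zscan and Zkscan genes, which carry a SCAN domain, had 0.51 (0.19 to 0.83). The interval of the Zfp members lies between both.

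With ΔZF1 the members had more sites than the list totals would give. In ESCs the pooled scaled log2 ratio of ΔZF1 over WT was 0.22 (0.15 to 0.28), and in NPCs 0.19 (0.11 to 0.28), against -0.03 for other genes in both. Without scaling the values were -0.76 and -0.40, so members had fewer sites in ΔZF1, but by less than the lists as a whole. The median over members compared was 0.24 in ESCs (94 genes) and 0.16 in NPCs (63 genes), against 0.00 and -0.06 for other genes.

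Most single members lay within the limits, but in ESCs the share above 1 was larger than in other genes. In ESCs 10 of 94 members (10.6%) were higher and 3 (3.19%) lower. Of all 6518 genes 6.84% and 5.45% passed, and of 5970 other genes 5.03% and 5.75%. In NPCs 2 of 63 members (3.17%) were higher and 3 (4.76%) lower. Of all 5274 genes 5.76% and 7.36% passed, and of 4928 other genes 4.50% and 7.63%. These counts changed with the sites used. With the score minimum 16 were higher and 0 lower in ESCs, and 8 and 0 in NPCs. Without scaling 3 were higher and 24 lower in ESCs, and 0 and 10 in NPCs. In NPCs exonic sites gave 6 higher and uridine sites 5. Filters on sites leave fewer members to compare, and shares over all genes are not given for these alternatives. Clustered members had 0.27 (0.16 to 0.37) in ESCs and 0.08 (-0.09 to 0.26) in NPCs, and members outside clusters had 0.19 (0.11 to 0.27) and 0.23 (0.13 to 0.32).

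Among members with at least 50 sites in the pair, Zfp64 was highest in ESCs, with 38 sites in ΔZF1 and 25 in WT, a ratio of 1.56 (0.86 to 2.30). Zfp59, of a chromosome 7 cluster, followed with 1.23 (0.48 to 2.00), and 59.9% of its words were shared. Zfp229, of a chromosome 17 cluster, had 1.16 (0.58 to 1.75). The lowest were Zfp985 at -0.90, Zfp609, a partner of the Integrator complex, at -0.69, and Zfp148 at -0.66. None of these 3 passed -1.

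In NPCs, under the same limit of 50 sites, the highest were Zfp407 at 1.27 (0.48 to 2.11), Zfp532 at 0.92 (0.44 to 1.41) and Zfp451, a SUMO ligase, at 0.89. The lowest were Zfp652 at -0.998, Zfp866 at -0.61 and, at -0.23 each, Zfp292 and Zfp266. Zfp652 had 44, 14 and 38 sites in the WT, ΔZF1 and noXL lists of NPCs, so its noXL number was above its ΔZF1 number. Of Zfp866's sites, 93.1% also lay in another gene.

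Over noXL, members did not stand above other genes. The pooled scaled log2 ratio of WT over noXL was 0.04 (-0.04 to 0.11) in ESCs, where other genes had 0.04. In NPCs it was -0.19 (-0.29 to -0.10), where other genes had 0.04. Past the limits, 6 of 90 members were higher and 8 lower in ESCs, where 8.12% and 6.6% of all 6208 genes passed. In NPCs 4 of 61 were higher and 10 (16.4%) lower, where 10.5% and 6.51% of all 4765 genes passed. Without scaling 75 members were higher in ESCs and 29 in NPCs, and 0 lower in both.

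Among members with at least 50 sites in the pair, Zfp317 had the highest ESC ratio over noXL, with 64 sites against 10, at 1.05 (0.22 to 2.11). Zfp330 followed at 0.92 and Zfp281 at 0.90. The lowest in ESCs under this limit were Zfp710 at -1.14, Zfp609 at -1.01 and Zfp142 at -0.94. In NPCs, again with at least 50 sites, Zfp655 was highest at 0.92, then Zfp106 at 0.52 and Zfp638 at 0.27. Zfp407 was lowest there at -1.98, with 19 WT sites against 34 noXL sites, followed by Zfp148 at -1.51 and Zfp608 at -1.50. Zfp148 and Zfp608 also had more noXL than WT sites in NPCs in number.

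Values of 9 genes that serve KRAB silencing were set beside the members. In NPC WT over ESC WT, 2 of the 9 lay below -1 and 0 above 1, where 10.4% and 11.5% of all genes passed. These were Setdb1 at -1.38, with 174 and 35 sites, and Smarcad1, a chromatin remodeller, at -1.35, with 495 and 103. Trim28, the corepressor bound by KRAB boxes, held 99, 35 and 10 sites in the ESC lists and 54, 11 and 7 in the NPC lists. Its ratio was 0.04 between cell types, -0.50 for ΔZF1 over WT in ESCs and -1.61 in NPCs. Over noXL it stood at 1.68 in ESCs and 1.61 in NPCs. Atf7ip, Cbx1, Cbx3, Cbx5, Morc3 and Sumo2 lay between -0.52 and 0.75 between cell types.

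The base under the site separated UV from noXL lists. In ESCs uridine was under 60.3% (59 to 61.5) of member sites with WT, 47.2% (45.5 to 49) with ΔZF1 and 28.0% (26.1 to 30.1) without UV. In NPCs it was under 61.7% (59.8 to 63.6) with WT, 60.01% (57.8 to 62.2) with ΔZF1 and 26.3% (24 to 28.7) without UV. The lower uridine share in ESC ΔZF1 was not seen in NPC ΔZF1. Other genes had 61.2%, 49.8% and 28.5% in ESCs and 65.5%, 59.5% and 28.2% in NPCs. Members lay below other genes by more than the interval in ESC ΔZF1 and NPC WT.

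Around the site, uridine was also frequent at the base before it. In ESC WT it stood at 48.5% of positions 1 nt upstream and in NPC WT at 49.5%, against 31.4% and 28.6% at 3 nt upstream. In both noXL lists the base before the site was uridine in 25.4% (ESC) and 28.0% (NPC), close to the more distant positions. Single members varied. Zfp638 had uridine under 310 of 477 ESC sites with WT, 104 of 243 with ΔZF1 and 32 of 115 without UV. Zfp207 had it under 172 of 220, 75 of 119 and 27 of 72. Zfp384, named here after its values were seen, had it under 31 of 70 sites with WT and 21 of 43 with ΔZF1, so the share was not lower with ΔZF1 in every member.

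**Figure D3:**
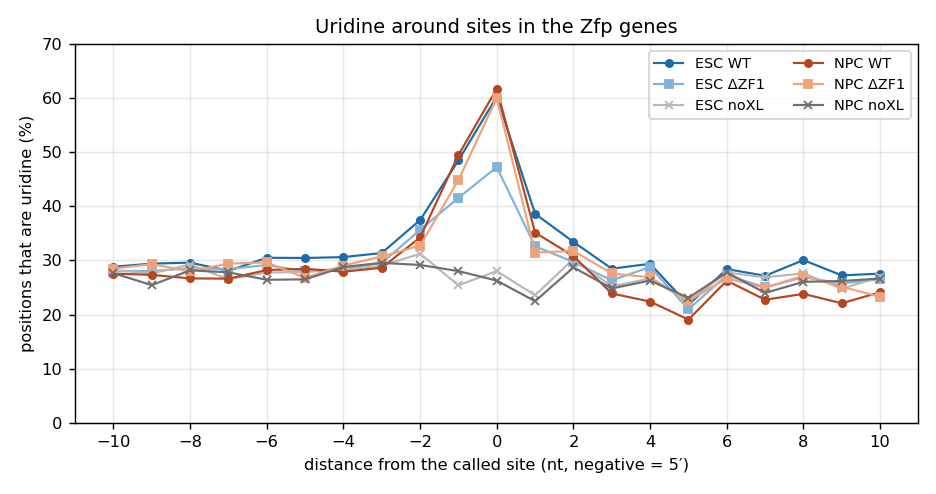
Share of positions that are uridine, in percent, from 10 nt upstream to 10 nt downstream of the called sites in members, 1 line per list. The 4 UV lists peak at the site and are raised at the base before it, while the 2 noXL lists stay between 22.4% and 31.2% throughout.

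Members differed from other genes in where their sites lay. In ESC WT, 28.2% (27.1 to 29.4) of member sites were in coding exons, against 36.8% for other genes, while 20.5% (19.5 to 21.6) lay in 3′ UTRs, against 16.3%. NPC WT gave 36.9% against 43.6% for coding exons and 18.5% against 15.8% for 3′ UTRs. Without UV, coding exons held 28.6% of member sites in ESCs and 30.9% in NPCs, against 34.0% and 31.6%. The 3′ UTR share without UV was 18.7% in ESCs and 18.2% in NPCs, against 13.6% and 13.9%. In ESC ΔZF1 it was 19.8% against 15.1%. In NPC ΔZF1 it was 15.8% (14.2 to 17.4) against 14.9%, a difference within counting error.

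The exon share as a whole was 61.7% (60.4 to 63) with WT and 59.99% (58.3 to 61.7) with ΔZF1 in ESCs. In NPCs it was 69.3% (67.5 to 71) and 57.5% (55.3 to 59.7). Other genes had 64.8% and 66.2% in ESCs and 71.0% and 58.6% in NPCs. In NPCs, ΔZF1 sites were less often exonic than WT sites by more than both intervals, in members and in other genes alike. Clustered members went from 59.1% in ESC WT to 75.9% in NPC WT, and members outside clusters from 63.1% to 67.0%.

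Single members ranged widely. Zfp281 had 100% of its WT sites in exons, and Zfp106 had 77.9%, with 152 of 298 in coding exons. Zfp638 had 29.6%, with 483 of 686 in introns, and Zfp207 had 35.4%. Per kb of exon, exonic WT sites numbered 22.2 in Zfp106, 21.1 in Zfp568, 18.2 in Zfp207, 17.96 in Zfp57, 16.5 in Zfp292 and 12.8 in Zfp638.

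**Figure D4:**
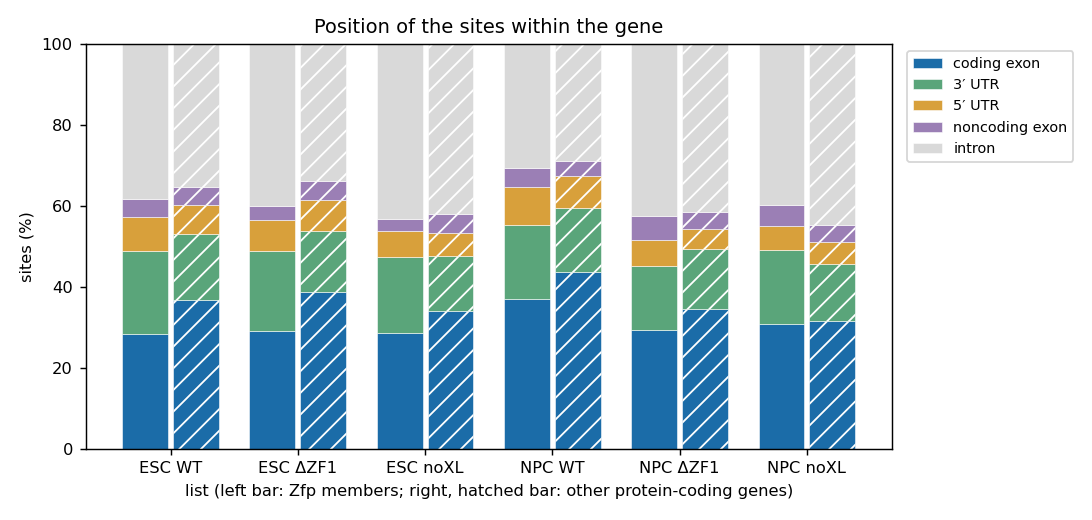
Position of the sites within the gene, as percent of the sites of each list, for Zfp members (left bar) and other protein-coding genes under the same rule (hatched right bar). Members have a smaller coding part and a larger 3′ UTR part in ESC WT and NPC WT, and the coding share is higher in NPC WT than in ESC WT in both gene sets.

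In the WT lists the base differed from other genes in coding exons. Uridine was under 53.3% (50.9 to 55.8) of coding sites of members in ESC WT, against 60.4% for other genes, and under 59.6% (56.5 to 62.7) in NPC WT, against 67.1%. With ΔZF1 the coding share was 43.9% (40.8 to 47.1) against 48.1% in ESCs. In NPC ΔZF1 it was 53.8% (49.7 to 57.8) against 57.3%, within counting error. Without UV it was 20.6% against 24.0% in ESCs and 21.9% against 23.0% in NPCs, also within counting error. The coding sequence itself had the same uridine content, 22.2% in members and 22.1% in other genes. In 3′ UTRs the shares were 69.1% (66.3 to 71.7) against 71.4% in ESC WT, within counting error. In NPC WT they were 69.5% (65.3 to 73.5) against 74.6%. In ESC WT members were higher than other genes in introns, at 65.2% (63.1 to 67.2) against 62.6%, and in 5′ UTRs, at 41.1% (36.8 to 45.6) against 35.96%. In NPC WT introns were level, at 64.6% against 64.5%, and 5′ UTRs had 45.8% (39.6 to 52.2) against 42.4%, within counting error.

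Within the coding sequence, zinc fingers are the repeated part. The stretches that code for fingers made up 27.9% of the coding length of the members but held 23.5% (21.5 to 25.7) of coding sites in ESC WT and 21.5% (18.96 to 24.2) in NPC WT. The share was 22.1% in ESC ΔZF1, 22.5% in NPC ΔZF1, 22.9% in ESC noXL and 19.2% in NPC noXL. Finger-coding sequence had more uridine, 26.0%, than coding sequence outside fingers, 20.6%. Summed over members, sites in fingers were thus somewhat fewer per length than outside in all 6 lists, at 5.62 per kb against 7.07 in ESC WT. Members with many coding sites but little finger sequence weigh on these sums. Zfp106, with 210 of 5664 coding nt in fingers, held 3 of its 89 ESC WT coding sites there. Fingers were not compared with the rest of the coding sequence gene by gene, so part of the difference may lie between genes.

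A finger and its linker repeat every 28 residues, or 84 nt, and 660 such tandem units in 82 members could be laid over each other from the first cysteine. UV sites piled up on few codons of this unit, which were picked out after the values were seen. Codon 27, which is tyrosine in 72.9% of units and phenylalanine in 19.7%, held 82 UV sites. Codon 8, phenylalanine in 90.8%, held 75, and codon 14, leucine in 87.6%, held 65. These are the hydrophobic residues that pack the core of a finger. The next was codon 1, the first zinc-binding cysteine, with 42, and every other codon had 33 or fewer.

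Codons 8, 14 and 27 make up 10.7% of the unit and held 222 of 769 UV sites, 28.9% (25.8 to 32.2). Without UV these codons held 15 of 147 sites, 10.2% (6.28 to 16.2). Sums over lists, here and below, count a position once for each list that called it, so their intervals are too narrow. The codons were picked by these same UV sites, so the shares are a description only. By list the share was 28.0% with WT, 28.1% with ΔZF1 and 9.57% without UV in ESCs, and 32.7%, 26.4% and 11.3% in NPCs. The WT and ΔZF1 shares differed by less than their counting intervals. These codons are also rich in uridine, and hold 28.1% of all uridines of the units.

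Of UV sites on uridine in the units, 182 of 375, or 48.5% (43.5 to 53.6), were in these 3 codons, which is 1.73 times their share of uridines. Codon 4, the second zinc-binding cysteine, was 61.3% uridine but had 12 UV sites on uridine, against 36 in codon 1, 47 in codon 14, 66 in codon 8 and 69 in codon 27. The base before the uridine differed as well. Of all uridines in the units, 24.0% follow another uridine, and of UV sites on uridine 53.1% (48.0 to 58.1) did, against 22.9% (12.1 to 39.0) without UV.

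Over the whole coding sequence of the members, 23.3% of uridines follow a uridine. Among uridine sites there, the share was 54.5% (51.1 to 57.9) with WT and 51.1% (46.3 to 55.9) with ΔZF1 in ESCs, and 58.6% (54.5 to 62.6) and 48.7% (43.1 to 54.3) in NPCs. Without UV it was 28.4% (20.8 to 37.5) in ESCs and 21.3% (14.1 to 31.0) in NPCs. Among the printed finger sites the called uridine follows another uridine in Zfp990, Zfp985, Zfp260, Zfp958 and Zfp26, and a cytidine in Zfp62. Whether this comes from contact, from the chemistry of UV or from site calling was not tested.

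**Figure D5:**
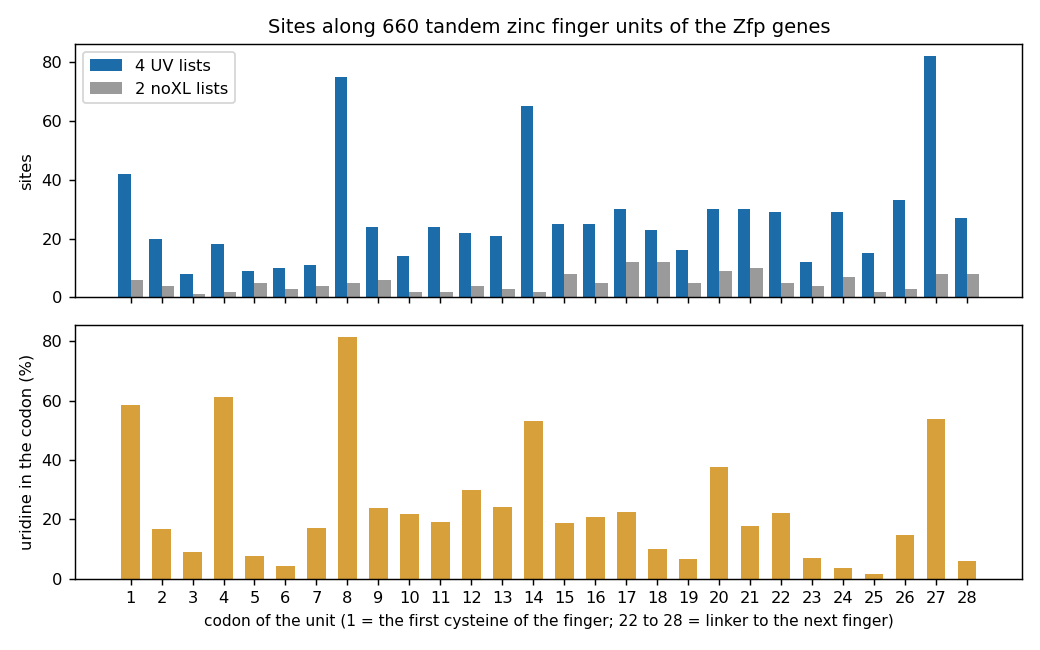
Sites along the 28 codons of 660 tandem finger units, as numbers of sites in the 4 UV lists and in the 2 noXL lists (top), and the share of uridine in each codon in percent (bottom). UV sites are highest in codons 27, 8 and 14, while codon 4 is as rich in uridine as codon 1 but has 18 UV sites.

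The scores that PureCLIP gave the sites differed little between members and other genes. Scores are not scaled to depth, so gene sets were compared within a list and no order between lists is read from them. In ESC WT the median was 2.28 for members and 2.53 for other genes, while NPC WT gave 2.14 and 2.37. It was 2.46 and 2.62 in ESC ΔZF1, 3.77 in both gene sets in NPC ΔZF1, 3.64 and 4.04 in ESC noXL, and 3.54 and 3.63 in NPC noXL. Within NPC noXL the highest member score was 155, in the 5′ UTR of Zfp462. Within each of the 3 ESC lists it was the Zfp57 position printed above, at 119 with WT, 121 with ΔZF1 and 89.4 without UV.

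Of 15777 distinct member positions, 95.7% were called at the same nucleotide in 1 list only. A site within 5 nt of an ESC WT site was found for 17.4% of ESC ΔZF1 sites of members and 24.3% of those of other genes, and for 20.1% and 28.9% of NPC WT sites. For NPC ΔZF1 sites near NPC WT sites the shares were 8.54% and 13.5%. Members thus shared fewer positions than other genes within 5 nt in these 3 pairs. The shares of members depended on the distance allowed. In the order of these pairs they were 6.98%, 8.53% and 2.85% at the same nucleotide, and 52.2%, 51.6% and 33.7% within 50 nt. The WT sites of members that lay within 5 nt of a noXL site were 5.75% in ESCs and 3.98% in NPCs.

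The 7 positions called in all 4 UV lists lay in Zfp292, Zfp326, Zfp330, Zfp414, Zfp462, Zfp654 and Zfp871, 5 of them in the 5′ UTR. The Zfp292 position scored 46.9 with WT, 38.2 with ΔZF1 and 13.3 without UV in ESCs, and 22.2 and 11.6 with WT and ΔZF1 in NPCs. The Zfp654 and Zfp871 positions were called in all 6 lists. Sites on the opposite strand of member genes were rare, from 0.10% to 0.42% in UV lists and 0.52% to 0.61% in noXL lists.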

How the data were processed

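Per the authors' methods, reads were demultiplexed and trimmed with Flexbar, aligned to mm10 with STAR and deduplicated by molecular identifier with UMI-tools. Libraries of a group were merged, and sites were called with PureCLIP, with versions not given in the sources used here. The deposited value of a site is its PureCLIP score, not scaled to depth. Read depth was not analysed here and is unknown from the lists.

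Gene bodies were those of GENCODE M21, and sites of the autosomes and sex chromosomes were counted by strand. A site in overlapping genes counts for each, and priority within a gene was coding exon, 3′ UTR, 5′ UTR, noncoding exon and intron. Words of 40 nt shared with transcripts of other genes mark members whose reads may be split. No protein table was used: coding sequences were translated from the genome. KRAB boxes were found by a pattern and fingers by the spacing of cysteines and histidines. Alternatives to these choices were run, and the calculations were tested on simulated data. The members, lists and rules were chosen with earlier results of these data known. Genes named were the 8 with most sites, the 3 highest and 3 lowest ratios among genes with at least 50 sites in a pair, leading cluster genes, genes near the rule and a list of known roles. Zfp445, Zfp266, the other chromosome 4 cluster genes and the genes of printed sites fall outside this rule and were chosen after their values were seen, as were the looser KRAB pattern, the split by shared words and the finger codons. Python 3.11.15, pandas 2.3.3, numpy 2.4.6, pysam 0.24.0, Biopython 1.88 and matplotlib 3.10.9 were used. A gene of the KRAB silencing list is not reported here.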

Additional observations from a re-analysis of the deposited data

Results flagged for a closer look

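Of 60 members compared in both cell types, 2 had intervals of the ΔZF1 over WT ratio on opposite sides of 0. The scaled log2 ratio of Zfp646 was 2.44 (1.36 to 3.76) in ESCs, with 21 sites against 7, and -1.41 (-3.15 to -0.17) in NPCs, with 4 against 19. That of Zfp148 was -0.66 (-1.01 to -0.33) in ESCs, with 91 sites against 286, and 0.88 (0.20 to 1.58) in NPCs, with 37 against 30. No test of these opposite ratios was run, and the differences were not tested, since each group is 1 merged list. The same count was not made over all genes, so no background stands beside it.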

How the results depend on the processing

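No paired analysis was possible because each group is a single list made from merged libraries, which also means that leaving 1 library out could not be tried. Without scaling, the pooled log2 ratios were -1.10 (NPC WT over ESC WT), -0.76 (ΔZF1 over WT, ESC), -0.40 (ΔZF1 over WT, NPC), 1.55 (WT over noXL, ESC), 0.98 (WT over noXL, NPC), -0.54 (NPC over ESC, noXL) and -0.74 (NPC over ESC, ΔZF1). The ΔZF1 over WT ratios and the NPC WT over noXL ratio thus turned direction, as did their medians, at -0.74, -0.43 and 0.96. With a score minimum of 3.02 the ratios of ΔZF1 over WT were 0.36 in ESCs and 0.38 in NPCs, and those of WT over noXL -0.11 and -0.38. With exonic sites only they were 0.14 for ΔZF1 over WT in ESCs, -0.34 for WT over noXL in NPCs, and 0.17 and -0.12 for NPC over ESC in noXL and ΔZF1, with a median of 0.018 in the last. With uridine sites only, ΔZF1 over WT in NPCs was 0.28 and NPC over ESC in ΔZF1 was -0.15, and with scaling by the median gene the latter was -0.14.

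The uridine share with the score minimum was 63.4% with WT in ESCs and 65.4% in NPCs. In exons it was 57.2% (WT) and 25.6% (noXL) in ESCs, and 55.7% (ΔZF1) and 23.4% (noXL) in NPCs. The exon share with the score minimum was 63.5% with WT in ESCs and 72.5% in NPCs, where sites in no other gene gave 71.4%. On uridine it was 58.6%, 58.0% and 51.9% in the WT, ΔZF1 and noXL lists of ESCs, and 53.4% and 53.6% for ΔZF1 and noXL in NPCs. A minimum of 50 sites left 52 members. Members below -1 in NPC WT over ESC WT numbered 26 as reported, 5 with the score minimum, 15 on uridine, 14 in exons, 52 without scaling and 10 with at least 50 sites, and 18 to 27 under the other alternatives. Those above 1 numbered 12, and 3 to 11 under the alternatives. Filters on sites also leave fewer members to compare, so these counts cannot be read as shares. Read depth was not known and limits every count. The cause was not tested.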
